A study of Mus musculus with 6 samples.

Results

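The genes described here are 9 genes of amyloid precursor processing and of inherited risk for Alzheimer's disease, out of 52550 genes in the count table. They were chosen by name, through the Ensembl identifier that belongs to each symbol. They comprise the amyloid precursor protein gene App with its paralogs Aplp1 and Aplp2, the secretase genes Adam10, Bace1 and Psen2, the trafficking genes Sorl1 and Picalm, and the chaperone gene Clu. The splicing table listed 32 events in these genes, of 40961 events in all.

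RNA-seq of mouse hippocampus was compared between 3 control libraries and 3 libraries labelled L-DL KD, with L-DL being the long isoform of the RNA-binding protein hnRNP DL. The study's methods describe male wild-type C57BL/6 J mice injected at 8 weeks of age with AAV into the CA1 areas on both sides. The controls received AAV with control shRNA, at a higher titre, and are labelled wild type. The L-DL KD mice received AAV with several L-DL shRNA sequences in tandem, each driven by the H1 promoter, while the neuronal CamkIIα promoter of that vector drove the green marker protein. The libraries held whole hippocampal tissue and not only the injected cells.

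Reads counted on genes numbered 16052529 to 16995425 per control library and 16525467 to 17913064 per library labelled L-DL KD. Hnrnpdl (ENSMUSG00000029328), the targeted gene, had 2862, 3120 and 2689 counts in controls and 3939, 2680 and 2904 counts in the L-DL KD-labelled libraries. No fall of its count was detectable (log2 fold change 0.03, SE 0.12, edgeR adjusted p = 0.898), and all of its transcripts were counted together. The paper assessed the knockdown by immunoblots of L-DL protein from hippocampus, which gene counts do not measure. The splicing table named its groups by sample number alone, and they were matched to control and L-DL KD through the order given in its name. With that match, the changes of summed junction counts and of gene counts ranked alike over 6733 genes (Spearman's rho 0.92 across genes, which are not independent replicates).

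Amyloid precursor protein is a membrane protein that is cut by competing enzymes. Cleavage by an alpha-secretase such as ADAM10 lies within the amyloid-beta stretch, while cleavage by the beta-secretase BACE1 followed by gamma-secretase releases amyloid-beta, the peptide of Alzheimer plaques. Where in the cell the precursor travels decides which enzyme it meets, and the sorting receptor SORL1 and the clathrin adaptor PICALM act at that step. Clusterin, the product of Clu, is a secreted chaperone that binds amyloid-beta outside the cell.

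Among the 9 genes, Sorl1, Psen2 and Clu were higher in the L-DL KD-labelled libraries, and none was called lower by edgeR. At an unadjusted p under 0.05, 4 were higher and 1, App, was lower, a threshold at which all genes were not counted. DESeq2 called 2 higher and App lower, against 2801 higher and 2724 lower of the 17621 genes tested. Sorl1 rose by the largest amount, a log2 fold change of 0.66, and was the only one of these calls that held in each alternative analysis. A gene was called at a Benjamini-Hochberg adjusted p under 0.05 in edgeR's quasi-likelihood test. Of 17621 genes tested, 30.5% were called, 15.6% as higher, so that 3 calls among 9 genes lay near the share over all genes. The libraries of the groups did not overlap for App, Psen2, Sorl1, Picalm and Clu, 5 of the 9 genes, against 47.2% of all genes tested. The median log2 fold change was 0.10 over the 9 genes and 0.01 over all genes tested.

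Expression levels are given as CPM, read counts brought to a common library total after TMM scaling. Divided by the merged exon length of each gene, the control levels stood in the order Clu, Aplp1, App, Aplp2, Sorl1, Adam10, Picalm, Bace1 and Psen2. Clu had a mean of 410.0 CPM per kilobase in controls and Psen2 had 3.92 CPM per kilobase, a 105-fold span. The control ranges of neighbouring genes in this order did not overlap for any pair. In the L-DL KD-labelled libraries the order of the means was the same, but App, at 98.8 to 122 CPM per kilobase, overlapped with Aplp2, at 96.6 to 109 CPM per kilobase.

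**Figure D1:**
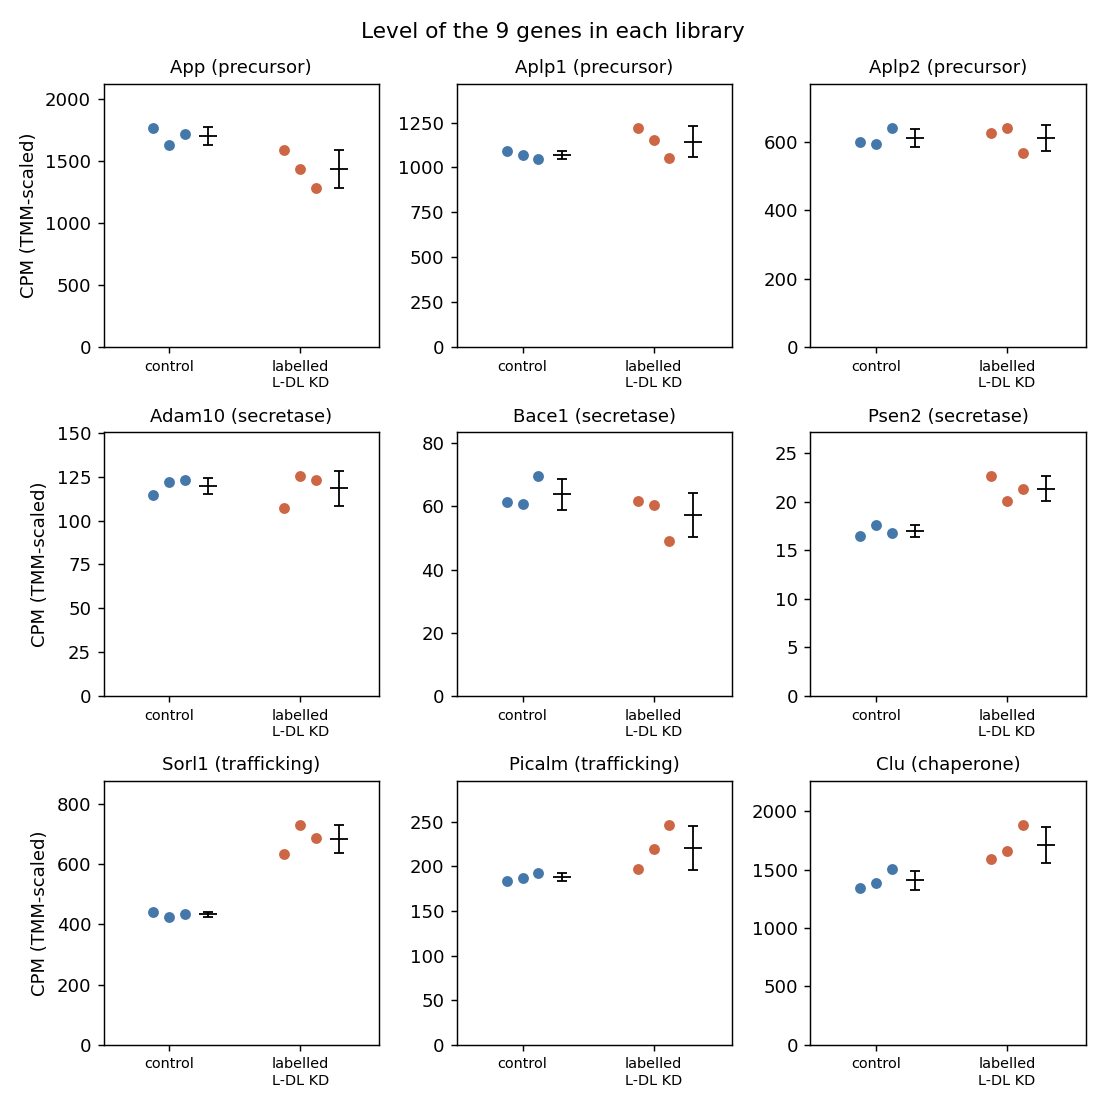
Level of each of the 9 genes in CPM (vertical axes, from 0), with 1 point per library for the control group (blue) and the group labelled L-DL KD (orange), and the mean ± SD in black. The groups lie apart for App, Psen2, Sorl1, Picalm and Clu, with the widest gap for Sorl1, from 442 to 635 CPM.

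App (ENSMUSG00000022892; GRCm38 chr16:84949685-85173766) encodes the precursor itself. Its level was 1770.2, 1627 and 1715 CPM in the controls and 1591, 1434 and 1284 CPM in the L-DL KD-labelled libraries. All 3 control libraries lay above all 3 others. The means were 1704 ± 72.0 CPM and 1436 ± 154 CPM (SD, n = 3 each), with a log2 fold change of -0.25 (SE 0.09, 95% interval -0.46 to -0.03, edgeR adjusted p = 0.0778), which missed the threshold. DESeq2 called App lower (adjusted p = 0.0327), as did edgeR without L-DL KD replicate 1 (log2 fold change -0.32, adjusted p = 0.00682), while without L-DL KD replicate 3 the log2 fold change was -0.17 (adjusted p = 0.146), and over all alternatives the adjusted p ran from 0.00682 to 0.233.

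Aplp1, whose product is a precursor family member found mainly in neurons, had 1047 to 1093 CPM in controls and 1054 to 1222 CPM in the L-DL KD-labelled libraries. The groups overlapped, and the log2 fold change was 0.10 (SE 0.08, 95% interval -0.08 to 0.27, edgeR adjusted p = 0.385). Aplp2, the broadly expressed family member, had 593 to 642 CPM in controls and 567 to 641 CPM in the other group. Its log2 fold change of -0.00 had a 95% interval from -0.17 to 0.17 (edgeR adjusted p = 0.997). Its sign turned with scaling by library size alone (0.032). The 3 precursor genes were not tested against each other.

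Splicing of the precursors was read from junction counts, the reads that cross exon joints of the form with a segment or of the form without it. PSI is the share of the form with the segment after each count is divided by the effective length of its form. Of the 32 listed events in the 9 genes, 13 had enough counts of both forms for a test (on average 20 or more counts in a library, with 1 or more of each form). None of the 13 passed edgeR's test of inclusion at an adjusted p under 0.05, against 0.255% of the 18829 events tested (48 events). An unadjusted p under 0.05 was found for 3 of the 13, in App and Picalm, against 13.3% of all events tested, and limma gave 0 and 3 of 13. These 3 events had lower PSI in the L-DL KD-labelled libraries, as had 8.3% of all events tested at that unadjusted threshold, and they were also those whose groups did not overlap (18.4% of all events tested). Mean PSI was lower in 12 of the 13 events, against 52.7% of all events tested, but several events came from 1 gene and some differences were near 0.

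The App event was exon 15 of transcript App-206 (18 exons), a coding exon of 54 nt on the minus strand at chr16:84971408-84971461. Transcripts without this exon are known from white blood cells, microglia and other non-neuronal cells, and joining its neighbours creates an attachment site for chondroitin sulfate. The sequences from the GENCODE transcript are shown because the exon is the App segment with enough counts of both forms for a test, with the segment in capitals between 12 bases of each neighbour.
App with exon 15: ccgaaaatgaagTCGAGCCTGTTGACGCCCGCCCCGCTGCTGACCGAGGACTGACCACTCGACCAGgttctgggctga
App without exon 15: ccgaaaatgaaggttctgggctga
Aplp2 with the 36 nt exon: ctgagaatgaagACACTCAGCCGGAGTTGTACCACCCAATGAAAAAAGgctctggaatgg
Aplp2 without the 36 nt exon: ctgagaatgaaggctctggaatgg
The lower pair is the corresponding exon of Aplp2, which lies in the same part of the molecule. The joined ends of the forms without the exon were identical at 18 of 24 bases between App and Aplp2.

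Joints of App exon 15 were covered by 2057 to 3157 junction counts per library. The form with the exon had 3019, 2854 and 2699 counts in controls and 2666, 2309 and 1808 counts in the L-DL KD-labelled libraries, in the order of the table, which carries no replicate numbers. The form without it had 138, 100 and 132 counts in controls and 211, 217 and 249 counts in the other group. All 3 L-DL KD-labelled libraries thus had more counts of the form without the exon, and fewer of the form with it, than any control. PSI was 0.945 ± 0.00882 in controls and 0.878 ± 0.0313 in the L-DL KD-labelled libraries (SD, n = 3 each). The share of the form without the exon was 5.53% and 12.2%. The log2 ratio of the forms differed by -1.23 (SE 0.27, 95% interval -1.82 to -0.65, edgeR unadjusted p = 0.000615, adjusted p = 0.0838), which missed the threshold after adjustment. The adjusted p ran from 0.0638 to 0.307 over the alternatives.

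The App exon that encodes the Kunitz protease inhibitor domain (exon 7 of App-206, 168 nt, chr16:85043576-85043743) and the neighbouring exon 8 (57 nt, chr16:85040251-85040307) belong to the known isoforms of the precursor, of which neurons mostly make the one without both. No listed event used either exon, so that their inclusion was not measured here. The 3 other App events, at exons 6 and 14, had PSI of at least 0.980 in all 6 libraries and too few counts of the second form for a test.

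In Aplp2, the 36 nt exon (exon 13 of Aplp2-202, chr9:31156190-31156225) had PSI of 0.802, 0.842 and 0.728 in controls and 0.678, 0.776 and 0.680 in the L-DL KD-labelled libraries. The highest value of the latter lay above the lowest control. The means of 0.790 ± 0.0578 and 0.711 ± 0.0559 (SD, n = 3 each) gave a difference of the log2 ratio of -0.62 (SE 0.31, 95% interval -1.30 to 0.06, edgeR adjusted p = 0.418). The Kunitz domain exon of Aplp2 (exon 7 of Aplp2-201, 168 nt, chr9:31167561-31167728) was included at 0.753 ± 0.0397 and 0.722 ± 0.00774 (SD, n = 3 each; edgeR adjusted p = 0.739). Intron 3 of Aplp1 was retained at a PSI of at most 0.00790 in any library.

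**Figure D2:**
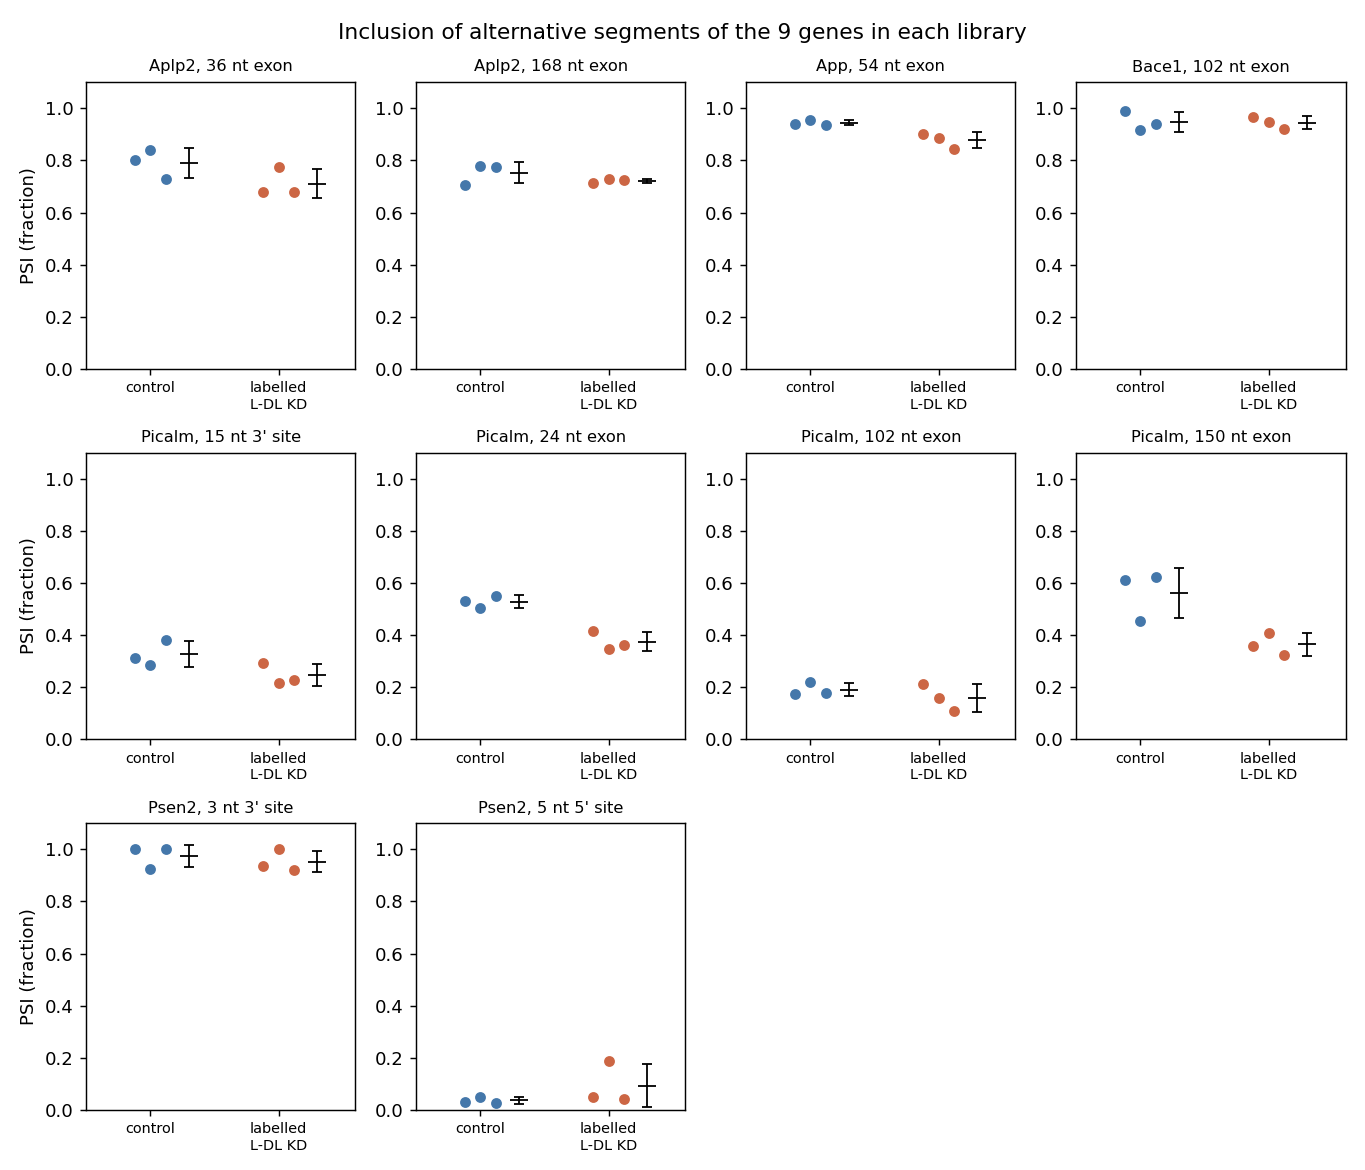
PSI (vertical axes, a fraction from 0) of the 10 tested events whose PSI left the extremes in at least 1 library, with 1 point per library for the control group (blue) and the group labelled L-DL KD (orange) and the mean ± SD in black. App exon 15 (54 nt) and the 24 nt and 150 nt exons of Picalm are the panels in which the groups do not overlap.

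Among the secretase genes, Psen2 was called higher, while Adam10 and Bace1 were not called. Psen2 (ENSMUSG00000010609) encodes presenilin 2, a catalytic subunit of gamma-secretase. It had the fewest reads of the 9 genes, with 268, 300 and 265 counts in controls and 411, 358 and 358 counts in the L-DL KD-labelled libraries. Every L-DL KD-labelled library had more than any control, also after scaling, at 16.5 to 17.6 CPM and 20.04 to 22.6 CPM. The log2 fold change was 0.33 (SE 0.11, 95% interval 0.09 to 0.57, edgeR adjusted p = 0.0468). The call was lost with DESeq2 (adjusted p = 0.0608), without the filter on low counts (0.107) and with the replicate block (0.0969). It was also lost without any single library, control replicates 1 to 3 and L-DL KD replicates 1 to 3 alike (0.0604 to 0.142).

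Bace1 (ENSMUSG00000032086), the beta-secretase gene, had 61.2, 60.9 and 69.5 CPM in controls and 61.8, 60.6 and 49.1 CPM in the L-DL KD-labelled libraries. Only 1 of the latter lay within the control range and the other 2 lay below it, and the log2 fold change was -0.16 (SE 0.11, 95% interval -0.40 to 0.08, edgeR adjusted p = 0.291). Its exons share 2061 bases with genes on the other strand, Rnf214 among them with 621 to 787 counts per library, and whether counting used strand was not stated in the sources used here. Adam10 (ENSMUSG00000054693), the main neuronal alpha-secretase gene, had 115 to 123 CPM in controls and 107 to 125 CPM in the other group. Its log2 fold change was -0.02 (SE 0.08, 95% interval -0.20 to 0.17, edgeR adjusted p = 0.895), with its sign turned by scaling to library size (0.015).

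At each listed event of the secretase genes, the same form had a share of at least 0.81 in every library. Exon 6 of Bace1-201 (102 nt), which alternative transcripts leave out, had PSI of 0.949 ± 0.0376 in controls and 0.945 ± 0.0242 in the L-DL KD-labelled libraries (SD, n = 3 each; edgeR adjusted p = 0.999). Exon 15 of Adam10-201 had PSI of at least 0.972 in every library. At Psen2, a 5′ splice site that adds 5 nt had a mean PSI of 0.0358 in controls and 0.0931 in the other group, on only 32 to 59 counts per library (difference of the log2 ratio 1.27, edgeR adjusted p = 0.639). The latter group had 0.0496, 0.188 and 0.0415, and without its high library, L-DL KD replicate 2 in the order of the table, the difference was 0.30. A 3′ splice site of Psen2 that adds 3 nt had PSI of at least 0.922 in every library.

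Of the 9 genes, the trafficking genes held the largest log2 fold change in level and the largest PSI differences. Sorl1 (ENSMUSG00000049313; chr9:41964720-42124297) encodes a sorting receptor that returns the precursor from endosomes to the Golgi. It had 442, 425 and 434 CPM in controls and 635, 729 and 688 CPM in the L-DL KD-labelled libraries. The lowest of the latter lay 192 CPM above the highest control, a gap larger than the range within either group. The log2 fold change was 0.66 (SE 0.07, 95% interval 0.49 to 0.82, edgeR adjusted p = 0.000636), a 1.58-fold higher level. Its adjusted p reached at most 0.00642 in the 10 alternatives, and its log2 fold change without any single library ran from 0.61 to 0.71. The 3 listed Sorl1 events had PSI of at least 0.988 in every library, and none could be tested.

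Picalm (ENSMUSG00000039361), the gene of a clathrin assembly protein that acts in endocytosis and in transport of amyloid-beta across vessel walls, had 184, 187 and 193 CPM in controls. The L-DL KD-labelled libraries had 197, 219 and 246 CPM, all above the controls, the lowest by a margin smaller than the control range. The log2 fold change was 0.23 (SE 0.09, 95% interval 0.03 to 0.43, edgeR adjusted p = 0.0817) and missed the threshold. Without L-DL KD replicate 1 it was 0.31 and passed (adjusted p = 0.0117), while without L-DL KD replicate 3 it was 0.15 (adjusted p = 0.182), and over the alternatives the adjusted p ran from 0.0117 to 0.209.

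Picalm had the most tested events of the 9 genes, with 4, and mean PSI was lower in the L-DL KD-labelled libraries at each. The exons below are shown because their inclusion differed most. Both are coding, have lengths that are multiples of 3 and lie on the plus strand, at chr7:90182219-90182368 (exon 13 of Picalm-201) and chr7:90194273-90194296 (exon 18 of Picalm-201), with the segment in capitals.
Picalm with the 150 nt exon: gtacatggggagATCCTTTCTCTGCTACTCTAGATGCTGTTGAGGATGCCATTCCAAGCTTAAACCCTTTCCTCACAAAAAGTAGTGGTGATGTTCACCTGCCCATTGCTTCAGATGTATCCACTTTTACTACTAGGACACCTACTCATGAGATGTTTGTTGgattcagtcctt
Picalm without the 150 nt exon: gtacatggggaggattcagtcctt
Picalm with the 24 nt exon: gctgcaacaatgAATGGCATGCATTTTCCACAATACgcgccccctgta
Picalm without the 24 nt exon: gctgcaacaatggcgccccctgta

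The 150 nt exon of Picalm had PSI of 0.613, 0.453 and 0.622 in controls and 0.359, 0.409 and 0.324 in the L-DL KD-labelled libraries. No value of the latter reached the lowest control. The means were 0.563 ± 0.0950 and 0.364 ± 0.0429 (SD, n = 3 each), and the log2 ratio of the forms differed by -1.17 (SE 0.34, 95% interval -1.90 to -0.43, edgeR unadjusted p = 0.00464, adjusted p = 0.172). The 24 nt exon had PSI of 0.530, 0.505 and 0.551 in controls and 0.415, 0.345 and 0.362 in the other group. Its replicates lay close together, and the means of 0.529 ± 0.0234 and 0.374 ± 0.0366 (SD, n = 3 each) differed by more than the spread of either group. The log2 ratio of its forms differed by -0.91 (SE 0.28, 95% interval -1.53 to -0.30, edgeR unadjusted p = 0.00736, adjusted p = 0.209). Neither exon passed the adjusted threshold under any alternative, on 273 to 399 junction counts per library.

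A 3′ splice site that adds 15 nt to exon 15 of Picalm-206 had mean PSI of 0.327 ± 0.0492 in controls and 0.247 ± 0.0417 in the L-DL KD-labelled libraries (SD, n = 3 each; edgeR adjusted p = 0.483). Exon 13 of Picalm-209 (102 nt), which holds the stop codon of that transcript, had 0.191 ± 0.0264 and 0.159 ± 0.0527 (SD, n = 3 each; edgeR adjusted p = 0.742). The groups overlapped at these segments. The 3 other Picalm exons listed had PSI of at least 0.988 in every library.

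Clu (ENSMUSG00000022037) is expressed in the brain mainly by astrocytes. It had 1342, 1383 and 1502 CPM in controls and 1594, 1657 and 1881 CPM in the L-DL KD-labelled libraries. The highest control lay below the lowest of the other group. The log2 fold change was 0.28 (SE 0.09, 95% interval 0.08 to 0.48, edgeR adjusted p = 0.0443). The call was lost without control replicate 1, 2 or 3 or L-DL KD replicate 2 or 3 (adjusted p = 0.0662 to 0.176) and held without L-DL KD replicate 1 (0.0117). The sole tested Clu event, a 5′ splice site that adds 4 nt, had PSI of at most 0.00364 in any library.

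Marker genes of several cell types differed in level between the groups. In bulk samples fewer cells of a type and less RNA per cell cannot be told apart. The marker counts stand beside 15.6% of all genes tested called higher and 15% called lower. All 11 microglia markers were called higher, and their summed level was 1895 to 2393 CPM in controls and 3719 to 4809 CPM in the L-DL KD-labelled libraries. Of 12 neuron markers 9 were called lower and 2 higher, with sums of 5881 to 6262 CPM and 4074 to 4789 CPM. Of 10 astrocyte markers 4 were called lower and 2 higher (sums of 8032 to 8172 CPM and 6272 to 7412 CPM), and of 7 hippocampal neuron markers 3 were called lower and 1 higher (941 to 963 CPM and 815 to 1109 CPM). Of 6 endothelial markers 3 were called higher (280.4 to 297 CPM and 339.7 to 418 CPM), of 8 oligodendrocyte markers 1 (4146 to 4389 CPM and 3430 to 5536 CPM), and of 7 choroid plexus markers none by edgeR (0 at an unadjusted p under 0.05 and 0 by DESeq2), with sums from 25.9 to 586 CPM that varied within both groups. No marker of any list was at 0 in all libraries, and the hippocampal neuron markers were present in each group.

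The library labelled L-DL KD with the lowest App level, replicate 3, also had the highest Clu and Picalm levels, the highest microglia sum and the lowest neuron sum of its group. L-DL KD replicate 1 had the highest App level, the lowest Clu and Picalm levels, the lowest microglia sum and the highest neuron sum of that group. Sorl1 was highest in L-DL KD replicate 2 (729 CPM) and Psen2 in L-DL KD replicate 1 (22.6 CPM). Control replicate 1 had the highest microglia sum of the controls (2393 CPM) with the lowest Clu and Picalm levels (1342 and 184 CPM). Control replicate 3 had the lowest microglia sum (1895 CPM) with the highest Clu and Picalm levels (1502 and 193 CPM). The part of the marker differences between the groups in the levels of Sorl1, Psen2, Clu, App and Picalm, and in the inclusion of App exon 15 and of the Picalm exons, was not tested.

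**Figure D3:**
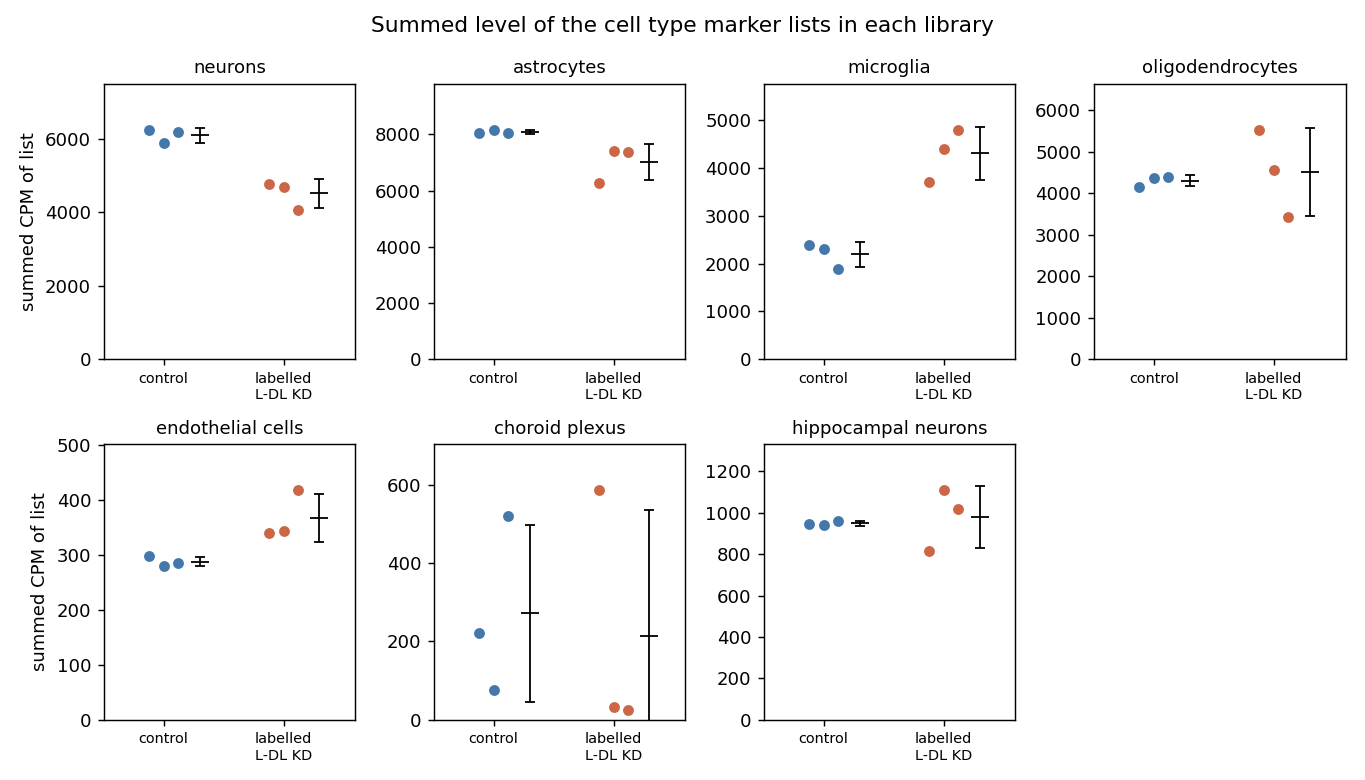
Summed CPM of each cell type marker list (vertical axes, from 0), with 1 point per library for the control group (blue) and the group labelled L-DL KD (orange) and the mean ± SD in black. The microglia sums of the groups do not overlap (1895 to 2393 and 3719 to 4809 CPM), and the neuron sums lie lower in the L-DL KD-labelled libraries (the lower SD bar of choroid plexus in that group ends at the axis).

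Other genes of the pathway were read from 4 lists with 59 genes in all, of which 58 were tested. Of these, 23 were called higher and 9 lower, against 15.6% and 15% of all genes tested. Among the other secretase subunits and paralogs, 4 of 8 were called higher and 1 lower, with a median log2 fold change of 0.28. Bace2, the paralog of Bace1, rose from 2.54 to 10.9 CPM on average (log2 fold change 2.09, SE 0.26, edgeR adjusted p = 0.000961). The alpha-secretase relatives Adam17 (0.59) and Adam9 (0.39) and the gamma-secretase subunit Aph1a (0.39) also rose, while Aph1b fell (-0.66), although Aph1b and Aph1c are near-identical copies that may share reads. Without control replicate 2 the Adam9 call was lost (adjusted p = 0.0524), and without control replicate 1 or 3 the Aph1b call was lost (0.0592 and 0.0587).

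Of the other gamma-secretase genes described here, neither was called. Ncstn, which receives the substrate, had 0.17 (edgeR adjusted p = 0.190), and Psenen, a small subunit needed for activation of the complex, had 0.13 (edgeR adjusted p = 0.366). Psen2 and Aph1a were thus the called genes among Psen2, Ncstn, Aph1a and Psenen, both higher. Aph1b, a further subunit gene described above, was called lower (-0.66).

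Of 22 tested adaptor and trafficking genes, 3 were called higher and 6 lower, against 15.6% and 15% of all genes tested. The share called higher thus lay near that of all genes. The median log2 fold change of the 22 genes was -0.07. Those that rose were Lrpap1 (0.96), a chaperone of the LDL receptor family, Lrp1 (0.79), an endocytic receptor for amyloid-beta and apolipoprotein E, and Itm2b (0.63), whose product binds the precursor. Of the genes called lower, Apba1, a neuronal adaptor that binds the tail of the precursor, had a log2 fold change of -1.08, and the sorting receptors Sorcs3 and Sort1 had -0.52 and -0.50. Without control replicate 1 the Sorcs3 call was lost (adjusted p = 0.0528). Sorl1 and its relatives thus did not share a direction, with Sorl1 higher, Sort1 and Sorcs3 lower, and Sorcs1 (0.26) and Sorcs2 (0.21) not called, and their differences were not tested against each other.

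The median log2 fold change over 8 genes of amyloid-beta degradation was 0.33. Of all genes tested, 15.6% were called higher and 15% lower. Of the 8 genes, none was called lower by edgeR (0 lower at an unadjusted p under 0.05 and 0 by DESeq2), and 3 were called higher. They were the protease genes Plau (0.80), Ctsb (0.62) and Ece1 (0.44), each of which lost its call without control replicate 2 or control replicate 3 (adjusted p = 0.0524 to 0.0699). Mme, the neprilysin gene, had -0.61 (95% interval -1.23 to 0.02, edgeR adjusted p = 0.128), and Ide, the insulin-degrading enzyme gene, had 0.11 (edgeR adjusted p = 0.369).

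Of 20 other Alzheimer risk genes, 13 were called higher and 2 lower, against 15.6% and 15% of all genes tested. The median log2 fold change of the 20 genes was 0.68. Trem2, a receptor of microglia, rose from 57.9 to 154 CPM on average (log2 fold change 1.41, SE 0.16, edgeR adjusted p = 0.000733), and Apoe, the gene of the lipid carrier made by astrocytes and microglia, rose from 3534 to 9190 CPM (1.38, SE 0.13). Abi3, also a microglia gene, had 1.62 (SE 0.47) at only 1.22 and 3.77 CPM, and its call was lost without control replicate 2 or 3 or L-DL KD replicate 2 or 3 (adjusted p = 0.0638 to 0.108). Ptk2b, a tyrosine kinase gene of neurons, and Tmem106b, a lysosomal membrane protein gene, had log2 fold changes of -0.52 and -0.42. Several of the genes that rose are known from microglia, whose markers moved in the same direction, and the part of that shift in these values was not tested.

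**Figure D4:**
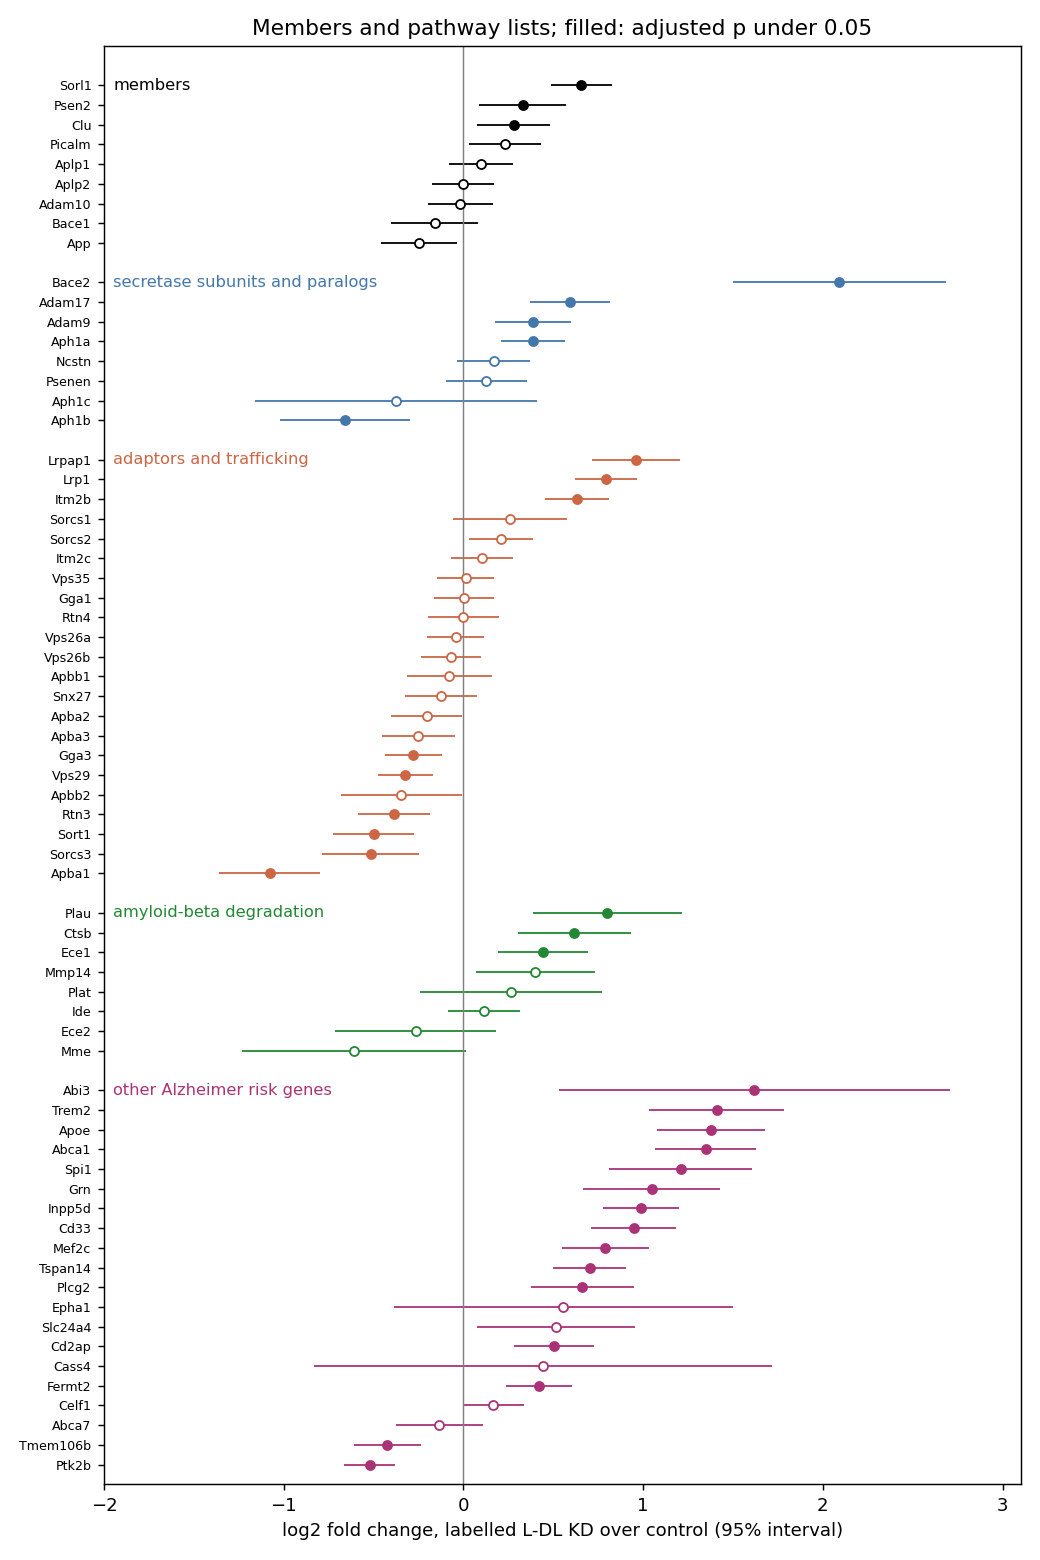
Log2 fold change of the L-DL KD-labelled libraries over control (horizontal axis) with 95% intervals from edgeR for the 9 genes and the 4 pathway lists, with filled symbols at an adjusted p under 0.05. Of the 9 genes Sorl1, Psen2 and Clu are filled, all to the right of 0. The other Alzheimer risk genes lie mostly to the right, with 13 of 20 filled there (15.6% of all genes tested were called higher).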

How the data were processed

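As deposited, the files hold unnormalized read counts for each Ensembl gene and rMATS junction counts of both forms of each splicing event, with effective lengths and PSI, for the mm10 (GRCm38) build. The submitters' processing notes name HISAT2 (2.1.0), HTSeq (0.6.1) and Bowtie (1.1.2). The deposited p-values, FDR and PSI differences of the authors' own comparison were not used. The largest difference between PSI recomputed here and PSI in the file was 0.0005.

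Genes reaching 10 counts in 3 or more libraries were tested with edgeR (4.0.16, R 4.3.3) on TMM-scaled counts. Junction counts were tested with edgeR on a column for each form of each library, with library effects and a change of inclusion between groups. DESeq2 (1.42.0), limma (3.58.1, pseudocount 0.5), other filters and scaling, a block for replicate number and the omission of single libraries were alternatives. Both models were tested on simulated data. Exon numbers and sequences came from GENCODE vM21. Levels per kilobase used merged exon lengths.

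The 9 genes and all lists were chosen with earlier results of these data known. From these lists 1 gene is not reported here and was left out of their counts. Named were the 9 genes, Hnrnpdl, other gamma-secretase subunits, up to 3 called genes in each direction per list, the event with the smallest p in each gene, App exons 7 and 8, the Aplp2 counterpart and events with a PSI change of at least 0.1. The other tested events, Mme, Ide, Sorcs1 and Sorcs2 were named after their values were seen. Labels do not say whether libraries came from separate mice, so p-values measure the spread between these libraries, which may be technical.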

Additional observations from a re-analysis of the deposited data

How the results depend on the processing

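The count of called genes among the 9 was 3 with scaling by library size and with DESeq2, 2 without the filter on low counts and 2 with the replicate block, and 1 to 4 without any single library. In the other pathway genes the count was 32, and 26 to 37 over these alternatives. Over all genes, 5379 were called, and 3498 to 6477 without any single library, the lowest without control replicate 3 and the highest without L-DL KD replicate 1. None of the events of the 9 genes was called by edgeR or limma under any alternative, while over all events the 48 calls became 0 with limma and 0 to 52 without any single library. The order by level per kilobase was the same for all 9 genes with the longest transcript in place of merged exons. The log2 fold change of Aplp2 was 0.032 with scaling by library size and ran from -0.032 to 0.054 without single libraries, and that of Adam10 was 0.015 and ran from -0.055 to 0.054. Without single libraries the log2 ratio ran from -1.36 to 0.11 for Aplp1 intron 3 (-0.82 with all libraries, turned without control replicate 2), from -0.93 to 0.25 for Adam10 exon 15 and from -0.56 to 0.47 for Bace1 exon 6. The cause was not tested.

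Same-numbered libraries of the groups did not deviate together (correlations of deviations of 0.05, 0.13 and -0.11). No pairing by number was thus visible, although so few libraries cannot exclude it. With the replicate block, Psen2 had an adjusted p of 0.0969 and Abi3 0.0545. No paired analysis was possible for splicing because the junction columns carry no replicate numbers. Depth limits Psen2, with 32 to 95 junction counts per library, most.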
